A study of Homo sapiens with 12 samples.

Results

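Acute-phase plasma proteins were followed here through 8 genes in Caco-2 cells, a line from a human colon carcinoma that is used as a model of intestinal epithelium. The genes were ORM1, ORM2, HP, HPX, SERPINA1, SERPINA3, FGL1 and SAA1. They were fixed by name with earlier results of these data known, as were the lists of related genes below. Counts set beside shares of all probe sets are therefore descriptions. A gene was taken where an array probe set carried its symbol and no other. All 8 had such a probe set, 1 each, among 18417 genes measured this way on 33297 probe sets.

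The 12 arrays fell into 4 groups of 3. Of the 3 transfected groups, 1 overexpressed HA-tagged wild-type TLR4 (TLR4-WT), the receptor that senses bacterial lipopolysaccharide, and the others carried TLR4-D299G or TLR4-T399I, mutants made in the same construct. These cells were stable clones selected with blasticidin at 1 µg/ml, whereas the control cells were untransfected and had received no DNA, so that transfection, selection and clone differ from the controls together with TLR4 and cannot be told apart. All cells had grown for 8 days, and the labels name no stimulus such as lipopolysaccharide. Nor do they say how many clones made up a line, or whether the 3 samples of a group were separate cultures; p-values thus cover only how far these samples lie apart, and that spread may be technical.

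Acute-phase proteins are secreted mainly by hepatocytes, and their plasma levels shift when inflammation sets in. Interleukin-6, acting through its receptor, gp130 and STAT3, and interleukin-1, acting through NF-kB, are the classical inducers, together with C/EBP factors and glucocorticoid. Intestinal epithelium makes some of the same proteins, and Caco-2 cells are known to secrete several plasma proteins as they differentiate.

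The transcripts of the TLR4 gene matched the labels: log2 values were 4.59 to 5.12 on the untransfected arrays and 8.29 to 8.89 on those of the TLR4 lines. The lines did not overlap, with 8.73 to 8.89 in TLR4-D299G, 8.49 to 8.71 in TLR4-WT and 8.29 to 8.39 in TLR4-T399I. All 12 markers of intestinal epithelium lay above the lower quartile of the arrays (5.2 to 5.29) in every group, with a mean over the list of 10.37 to 10.6 per array. Of 6 leukocyte markers, 1 lay below the lower quartile in each group, PTPRC (group means 3.57 to 3.85), and the list's mean was 6.93 to 7.08 per array, with LCP1 highest (10.65 to 10.96). Of 8 fibroblast markers, 1 or 2 lay below it, DCN among them (3.68 to 3.82), and the list's mean was 6.66 to 6.7 per array in TLR4-D299G against 6.23 to 6.48 in the other groups. PDGFRA was called higher in all 3 TLR4 lines, with 6.57 in untransfected cells and 8.66 in TLR4-D299G. Against untransfected cells, 3 of the 8 fibroblast markers were higher and 0 lower in TLR4-D299G, beside 17.5% and 17.9% of all probe sets. Their part in the results was not tested. Values here are log2 expression values as the authors deposited them, without detection calls, so the level of background is not known. Changes of 1 on this scale are 2-fold, and a difference was called at an adjusted p under 0.05 (limma, Benjamini-Hochberg over all probe sets). In bulk RNA, fewer cells that express a gene and less RNA of it per cell cannot be told apart.

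RefSeq (GRCh38.p14) promoter windows, from 250 bases before to 50 after the annotated start, were at hand for 4 of the genes: ORM1, HPX, SERPINA1 and SERPINA3. The windows of 3 genes are shown because, of these 4, ORM1 and HPX spanned the widest range over the arrays and because ORM1 and SERPINA3 share a run of bases. ORM1 lies on chr9:114322848-114323147 (plus strand), HPX on chr11:6440938-6441237 (minus strand) and SERPINA3 on chr14:94612141-94612440 (plus strand). Each is written 5′ to 3′ along its gene. Capitals mark the shared run in ORM1 and SERPINA3, and the matches to the motifs named below in HPX.
ORM1: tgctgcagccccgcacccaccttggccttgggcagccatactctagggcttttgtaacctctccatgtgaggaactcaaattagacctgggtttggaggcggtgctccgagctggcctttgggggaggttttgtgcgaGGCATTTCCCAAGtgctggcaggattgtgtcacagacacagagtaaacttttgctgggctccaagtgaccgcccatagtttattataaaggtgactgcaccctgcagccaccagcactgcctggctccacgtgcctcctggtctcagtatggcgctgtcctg
HPX: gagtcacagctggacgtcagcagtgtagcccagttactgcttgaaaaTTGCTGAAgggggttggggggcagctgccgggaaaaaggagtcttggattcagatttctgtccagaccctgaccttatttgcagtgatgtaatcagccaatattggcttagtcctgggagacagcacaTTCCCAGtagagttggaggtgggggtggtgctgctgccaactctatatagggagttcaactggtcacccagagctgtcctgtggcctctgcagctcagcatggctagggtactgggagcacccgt
SERPINA3: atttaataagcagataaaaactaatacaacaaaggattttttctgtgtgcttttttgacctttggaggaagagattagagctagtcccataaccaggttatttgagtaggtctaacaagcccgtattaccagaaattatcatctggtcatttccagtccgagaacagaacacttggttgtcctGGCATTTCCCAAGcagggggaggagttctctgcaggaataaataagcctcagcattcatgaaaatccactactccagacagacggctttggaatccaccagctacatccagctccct

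The longest run of bases common to any 2 of the 4 windows was GGCATTTCCCAAG, of 13 bases. It lay from -112 to -100 in ORM1 and from -67 to -55 in SERPINA3. ORM1 and SERPINA3 were the only 2 of 27305 windows of this length that held it on either strand (0.00732%), though it was chosen because both hold it. The other 5 pairs of windows shared runs of 7 to 9 bases. HPX held a match to the C/EBP motif TTGCNNAA (from -203 to -196; found in 10.6% of all windows) and, on the opposite strand, to CTGGGAA, the core of the interleukin-6 response element (from -75 to -69; 11% of windows). ORM1 held the TATA box letters TATAAA from -29 to -24 (7.71% of windows, gene strand only). No window of the 4 matched the STAT motif TTCNNNGAA (7.88%), the HNF4 motif CAAAGTCCA (0.359%) or the NF-kB letters GGGACTTTC (0.366%), searched on both strands. No searched motif overlapped another in a match. These are matches of letters, not sites shown to be bound.

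Across the 4 groups, 7 of the 8 genes differed by limma's moderated F test, as did 41.9% of all probe sets. SAA1 was the exception (adjusted p = 0.406). ORM1 spanned the widest range over the arrays, 4.39 log2 units, and SERPINA1 the narrowest of the 7, 1.1. The order of the groups was not the same for every gene, and 3 patterns were seen. ORM1, ORM2, HPX and SERPINA1 were highest in untransfected cells, with TLR4-D299G next. HP and SERPINA3 had their highest mean in TLR4-D299G. FGL1 was high in TLR4-WT and TLR4-D299G alike.

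**Figure D1:**
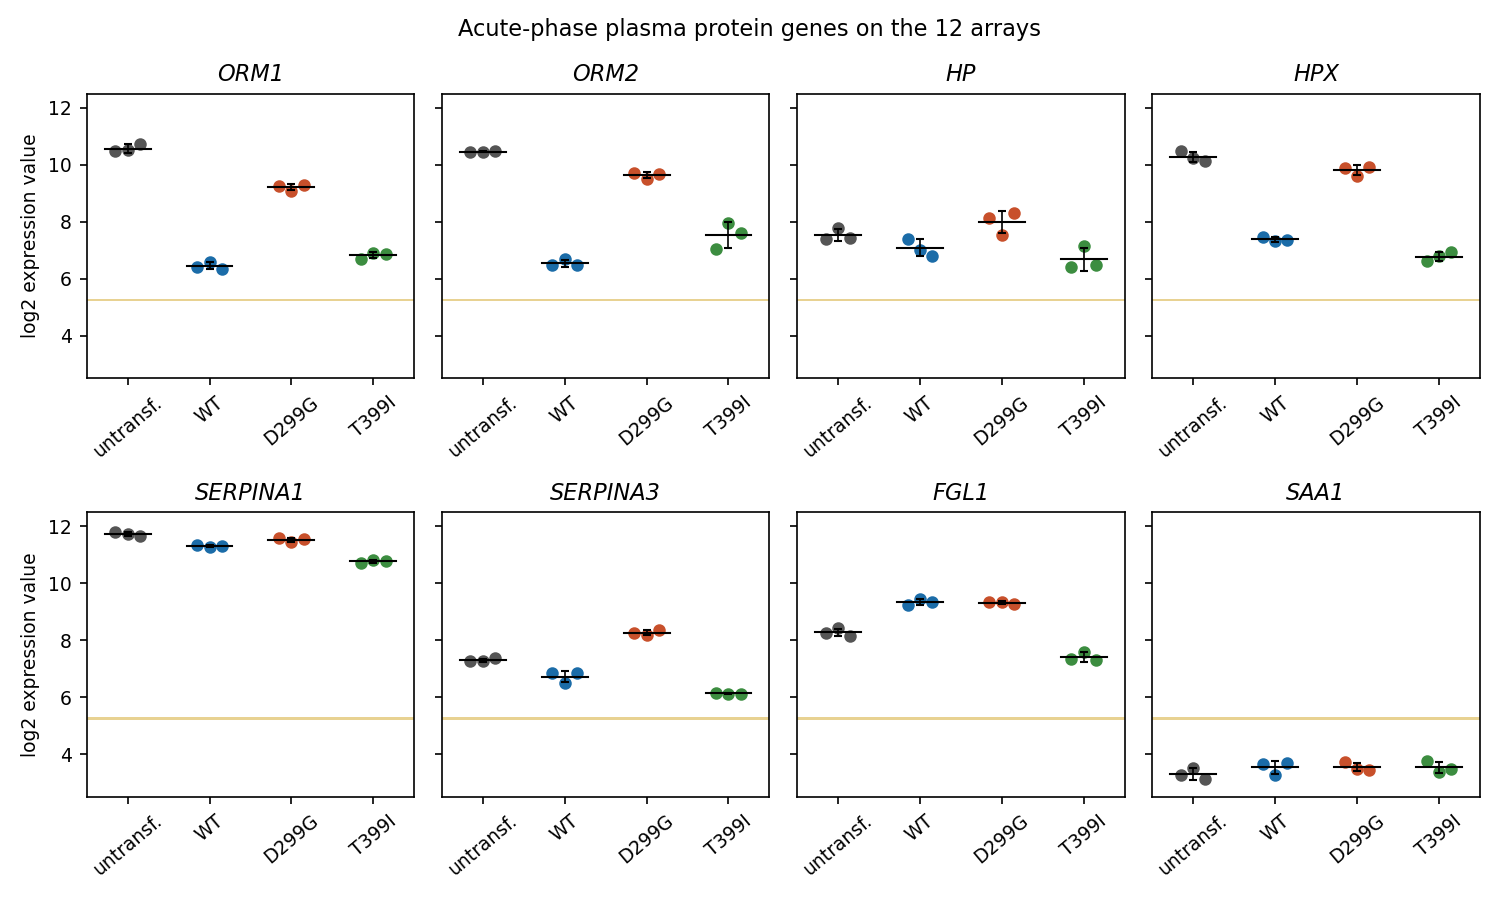
Log2 expression value of each gene (vertical axis) on the 3 arrays of each group (points), with the group mean (horizontal line) and SD (error bar, n = 3); the yellow band is the range of the arrays' lower quartiles, 5.2 to 5.29. ORM1, ORM2 and HPX sit above 9 in untransfected and TLR4-D299G cells and below 8 in the other lines, and SAA1 sits below the band on all arrays.

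Counted over the 8 genes, 5 were lower and 1 higher in TLR4-WT than in untransfected cells, where 15.1% of all probe sets were lower and 16.1% higher. With arrays centred on their median these became 17% and 11.1% of all probe sets, with 39.5% instead of 51.6% of calls higher. In TLR4-D299G 4 genes were lower and 2 higher, beside 17.9% and 17.5% of all probe sets. In TLR4-T399I 7 were lower and 0 higher, beside 14.8% and 14.6%. The median difference of the 8 genes was -0.51, 0.02 and -1.06 in that order, against 0.05, 0.03 and 0.03 over all probe sets. These comparisons share the untransfected arrays, so they are not independent of each other.

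Between the lines, TLR4-D299G had 6 of the 8 genes higher and 0 lower than TLR4-WT, where 7.85% of all probe sets were higher and 9.02% lower. Against TLR4-T399I it had 7 higher and 0 lower, beside 5.81% and 7.64%. TLR4-T399I against TLR4-WT had 2 higher, ORM1 and ORM2, and 4 lower, HPX, SERPINA1, SERPINA3 and FGL1, beside 5.9% and 4.48% of all probe sets. With arrays centred, 69.2% instead of 56.8% of all calls were higher in that comparison (6.17% and 2.74% of all probe sets). Medians over the 8 genes were 1.23 for TLR4-D299G minus TLR4-WT, 2.01 for TLR4-D299G minus TLR4-T399I and -0.47 for TLR4-T399I minus TLR4-WT, against -0.02, 0 and -0.02 over all probe sets. Each compares selected lines, in which the mutation, the clone and the level of TLR4 transcript cannot be told apart.

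**Figure D2:**
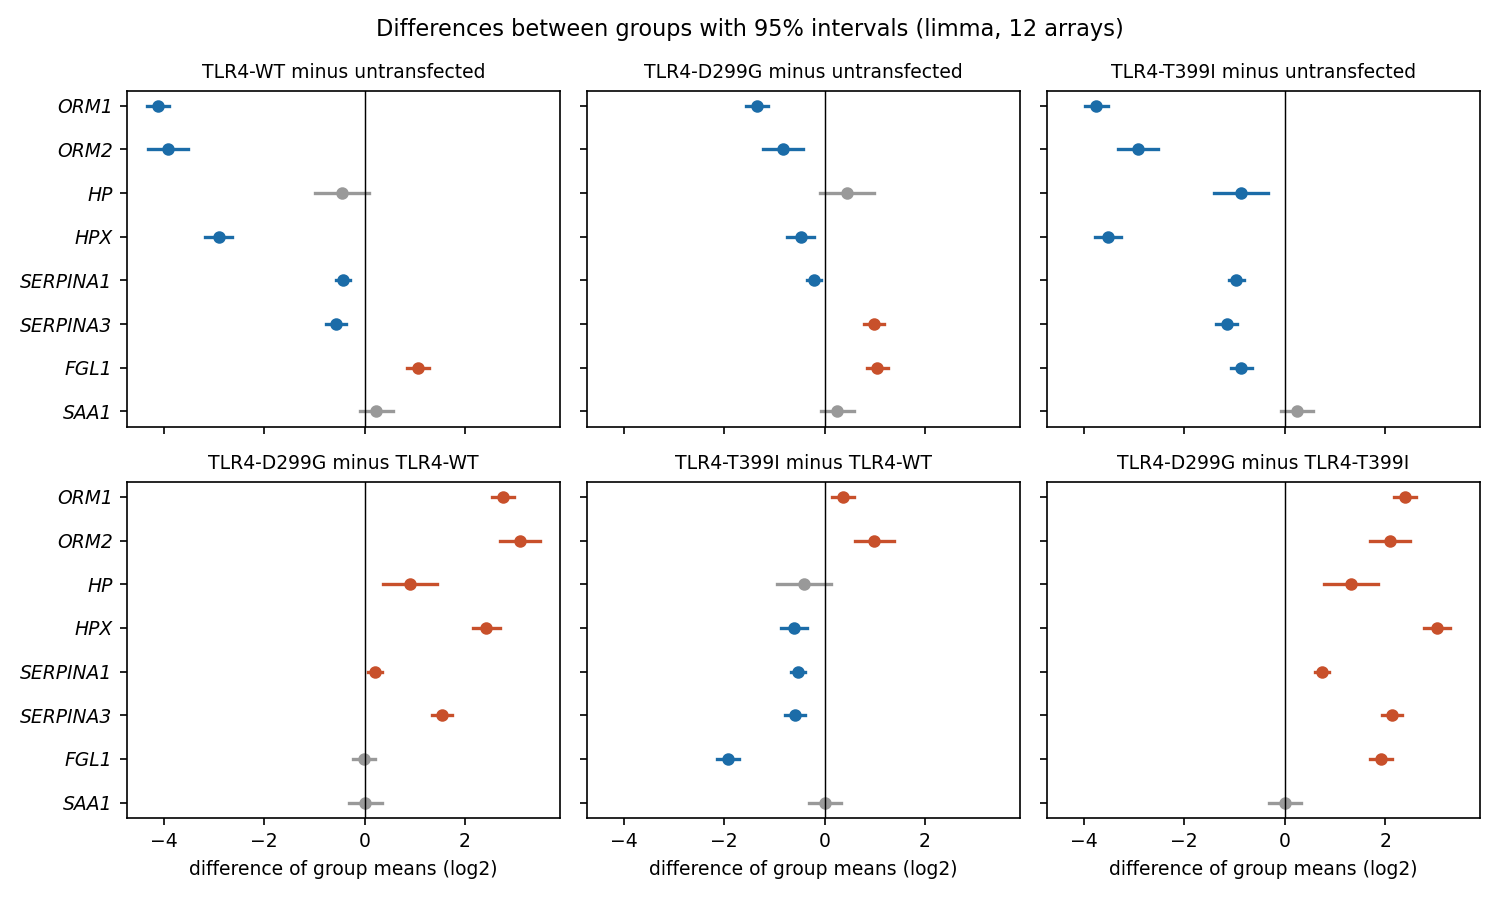
Difference of group means on the log2 scale (horizontal axis) for each gene in the 6 comparisons, with 95% intervals from the fit to 12 arrays; red is called higher, blue called lower and grey not called. The differences of ORM1, ORM2 and HPX from untransfected cells run from -4.12 to -2.91 in TLR4-WT and from -1.35 to -0.48 in TLR4-D299G.

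ORM1 and ORM2 encode the forms of α1-acid glycoprotein, also called orosomucoid, a plasma carrier of basic drugs. The genes are neighbours on chromosome 9 with no protein-coding gene between them, and their transcripts are so alike that probes may read both; their values are not independent. ORM1 had log2 values of 10.47, 10.50 and 10.73 in untransfected cells, 9.26, 9.08 and 9.3 in TLR4-D299G, 6.69, 6.9 and 6.86 in TLR4-T399I, and 6.42, 6.59 and 6.34 in TLR4-WT. No pair of these groups overlapped. Against untransfected cells ORM1 fell by 4.12 (SE 0.10, adjusted p = 9.67e-09) in TLR4-WT and by 3.75 (SE 0.10, adjusted p = 3.78e-09) in TLR4-T399I, and only by 1.35 (SE 0.10, adjusted p = 3.46e-06) in TLR4-D299G. TLR4-D299G thus kept a level 6.79-fold above TLR4-WT (95% interval 5.82 to 7.92) and 5.27-fold above TLR4-T399I (4.52 to 6.14). The small difference between TLR4-T399I and TLR4-WT, 0.37 (SE 0.10, adjusted p = 0.041), was lost in 9 of 18 alternatives (adjusted p = 0.0137 to 0.14 over all). It was lost without TLR4-WT replicate 1 or 3 or TLR4-T399I replicate 2 or 3 (0.126 to 0.14), and without TLR4-D299G replicate 1 or 3 or untransfected replicate 2, which enter it only through the shared estimate of spread (0.051 to 0.058).

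ORM2 had log2 values of 10.44, 10.45 and 10.49 in untransfected cells and 9.71, 9.51 and 9.68 in TLR4-D299G. It lay at 7.03, 7.96 and 7.6 in TLR4-T399I and at 6.46, 6.67 and 6.48 in TLR4-WT. The 4 groups did not overlap, and the TLR4-T399I arrays were the most scattered (SD 0.47, against 0.03 to 0.12 in the other groups). ORM2 fell by 3.92 (SE 0.18, adjusted p = 1.34e-07) in TLR4-WT, by 2.93 (adjusted p = 8.98e-07) in TLR4-T399I and by 0.83 (adjusted p = 0.00472) in TLR4-D299G. It was higher in TLR4-T399I than in TLR4-WT by 0.99 (SE 0.18, adjusted p = 0.00536).

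The probe sets of ORM1 and ORM2 did not change by the same amount. Within an array, ORM2 minus ORM1 was -0.03, -0.05 and -0.24 log2 units in untransfected cells, while TLR4-WT had 0.04, 0.08 and 0.14. It was 0.45, 0.43 and 0.38 in TLR4-D299G and 0.34, 1.06 and 0.74 in TLR4-T399I. The mutant lines thus lay above both other groups on every array, and TLR4-T399I had the widest spread (0.71 ± 0.36, SD, n = 3, against 0.42 ± 0.04 in TLR4-D299G). This shows unequal change between probe sets and was not tested. Whether it reflects the transcripts or the probes cannot be told from these values.

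**Figure D3:**
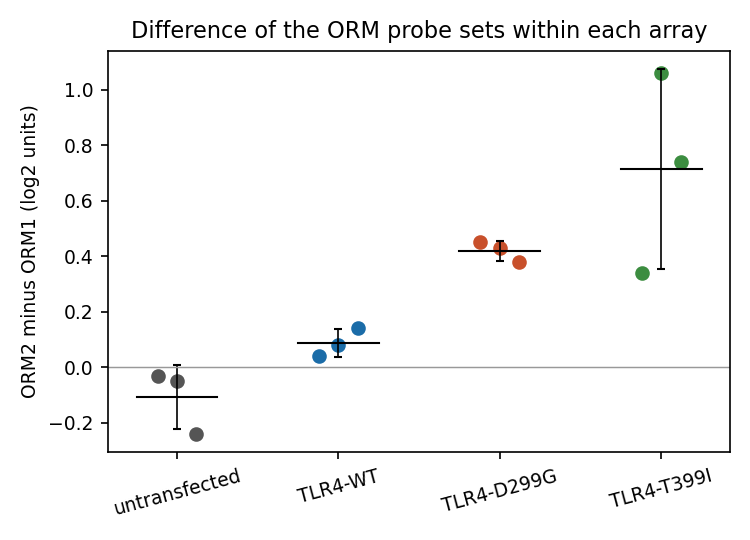
Log2 value of ORM2 minus that of ORM1 (vertical axis) on each array (points) of the 4 groups, with the group mean (line) and SD (error bar, n = 3). Untransfected arrays lie at or below -0.03, TLR4-WT between 0.04 and 0.14, and all arrays of the mutant lines at 0.34 or more.

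HP and HPX encode the scavengers of haemoglobin and haem: haptoglobin binds free haemoglobin, and hemopexin binds haem. HPX had log2 values of 10.48, 10.24 and 10.13 in untransfected cells, 9.9, 9.6 and 9.91 in TLR4-D299G, 7.47, 7.32 and 7.34 in TLR4-WT, and 6.6, 6.79 and 6.92 in TLR4-T399I. No 2 groups overlapped. HPX fell by 2.91 (SE 0.12, adjusted p = 6.37e-08) in TLR4-WT and by 3.51 (adjusted p = 2e-08) in TLR4-T399I against untransfected cells. In TLR4-D299G it fell by 0.48 (adjusted p = 0.00948), which left it 5.38-fold above TLR4-WT (95% interval 4.48 to 6.45) and 8.19-fold above TLR4-T399I (6.83 to 9.82). Unlike ORM1 and ORM2, HPX was lower in TLR4-T399I than in TLR4-WT, by 0.61 (SE 0.12, adjusted p = 0.00796), so that the lines with the lowest level were not the same for these genes.

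HP spanned 1.88 log2 units over the arrays, against 3.88 for HPX, and its arrays scattered within each group (SD 0.22 to 0.41). It had log2 values of 7.39, 7.79 and 7.42 in untransfected cells, 7.4, 7.02 and 6.81 in TLR4-WT, 8.14, 7.53 and 8.29 in TLR4-D299G, and 6.41, 7.14 and 6.46 in TLR4-T399I. Untransfected cells overlapped both TLR4-WT and TLR4-D299G, and TLR4-T399I overlapped TLR4-WT. HP in TLR4-D299G was 1.32 (SE 0.24, adjusted p = 0.00397) above TLR4-T399I and 0.91 (adjusted p = 0.0253) above TLR4-WT, and HP fell by 0.86 (adjusted p = 0.0211) in TLR4-T399I against untransfected cells. The difference from TLR4-WT was lost without TLR4-WT replicate 2 or 3 or TLR4-D299G replicate 1 or 3 (adjusted p = 0.0777 to 0.103; 0.0094 to 0.103 over all alternatives). That in TLR4-T399I was lost without TLR4-T399I replicate 1 or 3 or untransfected replicate 2 (0.0733 to 0.081; 0.00642 to 0.081 over all alternatives). The other comparisons of HP did not pass: the 95% intervals ran from -0.99 to 0.08 for TLR4-WT minus untransfected, from -0.09 to 0.99 for TLR4-D299G minus untransfected and from -0.95 to 0.13 for TLR4-T399I minus TLR4-WT.

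HPR, the haptoglobin-related gene next to HP on chromosome 16, is near-identical to HP in sequence, and it was singled out for that reason. Its group means were 7.57 in untransfected cells, 6.52 in TLR4-WT, 7.64 in TLR4-D299G and 6.65 in TLR4-T399I. HPR fell by 1.04 (SE 0.15, adjusted p = 0.000423) in TLR4-WT and by 0.92 (adjusted p = 0.000927) in TLR4-T399I. In TLR4-D299G it differed from untransfected cells by 0.07 (adjusted p = 0.747). Reads of HP and HPR by each other's probes cannot be separated here.

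SERPINA1 and SERPINA3 encode serine protease inhibitors: α1-antitrypsin, which inhibits neutrophil elastase, and α1-antichymotrypsin, which inhibits cathepsin G. SERPINA1 had log2 values of 11.81, 11.72 and 11.67 in untransfected cells, 11.57, 11.45 and 11.55 in TLR4-D299G, 11.34, 11.28 and 11.31 in TLR4-WT, and 10.71, 10.82 and 10.79 in TLR4-T399I. The groups did not overlap, although all 12 values lay within 1.1 log2 units. SERPINA1 fell by 0.96 (SE 0.06, adjusted p = 1.55e-06) in TLR4-T399I, by 0.42 (adjusted p = 0.000543) in TLR4-WT and by 0.21 (adjusted p = 0.0249) in TLR4-D299G. The last was lost without TLR4-D299G replicate 2 or 3 or untransfected replicate 1 or 2 (adjusted p = 0.0518 to 0.0966) and in a fit of the 6 arrays compared (0.0709), over a range of 0.00603 to 0.0966 for all alternatives. The excess of TLR4-D299G over TLR4-WT, 0.21 (adjusted p = 0.0412), was lost in 10 of 18 alternatives (0.0091 to 0.137 over all). It was lost without any TLR4-WT replicate or TLR4-D299G replicate 1 or 3 (0.0812 to 0.137), without TLR4-T399I replicate 3 (0.0603) or untransfected replicate 2 (0.0536), and with arrays centred on their median (0.0688).

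SERPINA3 took opposite directions in the mutant lines. Its log2 values were 7.25, 7.25 and 7.36 in untransfected cells, 8.26, 8.18 and 8.36 in TLR4-D299G, 6.83, 6.5 and 6.83 in TLR4-WT, and 6.15, 6.12 and 6.12 in TLR4-T399I, with no overlap. SERPINA3 rose by 0.98 (SE 0.09, adjusted p = 1.63e-05) in TLR4-D299G and fell by 1.16 (adjusted p = 5.65e-06) in TLR4-T399I and by 0.57 (adjusted p = 0.000887) in TLR4-WT. Directly compared, TLR4-D299G was 4.40-fold above TLR4-T399I (95% interval 3.82 to 5.06) and 2.92-fold above TLR4-WT (2.54 to 3.36).

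SERPINA1 and SERPINA3 belong to a cluster of serpin genes on chromosome 14, with SERPINA11, SERPINA9, SERPINA12, SERPINA4 and SERPINA5 between them in the RefSeq order. Of 8 cluster neighbours measured, 5 were lower and 0 higher in TLR4-WT than in untransfected cells (median difference -0.51, against 0.05 over all probe sets), and likewise 5 and 0 in TLR4-T399I (-0.58, against 0.03). In TLR4-D299G 3 were higher and 0 lower (median -0.005, against 0.03). Over all probe sets the shares lower and higher were 15.1% and 16.1% in TLR4-WT, 17.9% and 17.5% in TLR4-D299G, and 14.8% and 14.6% in TLR4-T399I. SERPINA4 and SERPINA6 are also counted among the negative acute-phase proteins below, and SERPINA10 among the positive ones, so these list counts are not independent. SERPINA6, which encodes the plasma carrier of cortisol and is next to SERPINA1, had means of 10.27 in untransfected cells, 10.16 in TLR4-D299G, 8.35 in TLR4-WT and 7.28 in TLR4-T399I. SERPINA4 (kallistatin) was 1.27 higher in TLR4-D299G than in untransfected cells (adjusted p = 8.25e-06) and fell by 1.50 in TLR4-WT (adjusted p = 2.88e-06). SERPINA5, the protein C inhibitor, had means of 8.93, 9.25, 7.61 and 7.89 in untransfected, TLR4-D299G, TLR4-WT and TLR4-T399I cells, and SERPINA11 had 7.89, 8.13, 7.51 and 7.28. These 4 neighbours were named for having the largest called differences of the list. In all 4 TLR4-D299G was called above both TLR4-WT and TLR4-T399I, as in SERPINA1 and SERPINA3. Of the 8 neighbours, 5 were higher and 0 lower in each of these comparisons. Over all probe sets 7.85% were higher and 9.02% lower against TLR4-WT, and 5.81% and 7.64% against TLR4-T399I. The SERPINA1 call over TLR4-WT was lost in 10 of 18 alternatives.

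FGL1 encodes fibrinogen-like protein 1, a protein secreted by the liver that binds the T cell receptor LAG3. It had log2 values of 9.22, 9.43 and 9.35 in TLR4-WT, 9.35, 9.34 and 9.27 in TLR4-D299G, 8.24, 8.41 and 8.16 in untransfected cells, and 7.33, 7.6 and 7.29 in TLR4-T399I. TLR4-WT and TLR4-D299G overlapped, and the other groups stood apart. FGL1 rose by 1.06 (SE 0.10, adjusted p = 1.69e-05) in TLR4-WT and by 1.05 (adjusted p = 1.58e-05) in TLR4-D299G, and fell by 0.86 (adjusted p = 7.06e-05) in TLR4-T399I. FGL1 was the only one of the 8 genes called higher in TLR4-WT than in untransfected cells. TLR4-D299G differed from TLR4-WT by -0.01 (adjusted p = 0.963), with a 95% interval of -0.23 to 0.20.

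SAA1 encodes serum amyloid A, which in the acute phase is one of the plasma proteins that rises most. Its log2 values ran from 3.11 to 3.75 over the 12 arrays, below the lower quartile of each, and all pairs of groups overlapped. SAA1 means were 3.29 in untransfected cells, 3.53 in TLR4-WT, 3.54 in TLR4-D299G and 3.54 in TLR4-T399I. The largest difference was 0.25 (95% interval -0.08 to 0.58, adjusted p = 0.212), for TLR4-D299G minus untransfected. A probe set that carries the symbols of both SAA2 and SAA1 gave 3.17 to 3.66 over the arrays. CRP, the classical acute-phase marker, had group means of 5 to 5.12, below the lower quartile of the arrays, and was called in no comparison.

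Other genes of the acute-phase response were described by the same fit. Of 33 other positive acute-phase proteins measured, 13 were lower and 3 higher in TLR4-WT, 6 lower and 13 higher in TLR4-D299G, and 15 lower and 2 higher in TLR4-T399I than in untransfected cells. The medians were -0.08, 0.22 and -0.14, against 0.05, 0.03 and 0.03 over all probe sets. In TLR4-WT 17 of the 33 were not called, and in TLR4-T399I 16. Beside these counts, 15.1% of all probe sets were lower and 16.1% higher in TLR4-WT, 17.9% and 17.5% in TLR4-D299G, and 14.8% and 14.6% in TLR4-T399I. The 4 genes named have the largest called difference in any of the 6 comparisons. A2M, a broad protease inhibitor, was counted in this list although its human plasma level changes little in the acute phase. It had a mean of 7.97 in untransfected cells, 11.76 in TLR4-D299G and 6.81 in TLR4-T399I. FGA, the fibrinogen alpha chain, had 10.05, 12.02 and 9.72 in that order. PLA2G2A, a secreted phospholipase that kills bacteria, fell by 1.75 (adjusted p = 2.82e-07) in TLR4-WT and rose by 0.83 (adjusted p = 4.67e-05) in TLR4-D299G. CP, the copper-carrying ferroxidase ceruloplasmin, rose by 2.02 (adjusted p = 1.69e-05) in TLR4-WT and by 1.13 (adjusted p = 0.000763) in TLR4-D299G, and like FGL1 it was higher in those lines.

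Negative acute-phase proteins are those whose plasma levels fall in inflammation. Of 16 measured, 11 were lower and 2 higher in TLR4-WT, 2 lower and 8 higher in TLR4-D299G, and 10 lower and 3 higher in TLR4-T399I than in untransfected cells. Over all probe sets the shares lower and higher were 15.1% and 16.1%, 17.9% and 17.5%, and 14.8% and 14.6% in that order, so the 2 lower in TLR4-D299G and the 3 higher in TLR4-T399I were near the background. The medians were -0.49, 0.23 and -0.95, against 0.05, 0.03 and 0.03 over all probe sets. ALB, albumin, had means of 13.21 in untransfected cells, 13.25 in TLR4-D299G, 10.31 in TLR4-WT and 9.89 in TLR4-T399I. TF, the iron carrier transferrin, had 7.45 in untransfected cells, 5.87 in TLR4-WT, 9.52 in TLR4-D299G and 8.53 in TLR4-T399I. It was 1 of the 3 higher in TLR4-T399I, by 1.09 (adjusted p = 0.00118); the others, named after their values were seen, were APOM (9.97 against 9.54) and F12 (7.11 against 6.82). SERPINA7, the carrier of thyroid hormone, fell in all 3 lines, from 8.27 to 5.95 in TLR4-WT, 6.85 in TLR4-D299G and 5.17 in TLR4-T399I.

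**Figure D4:**
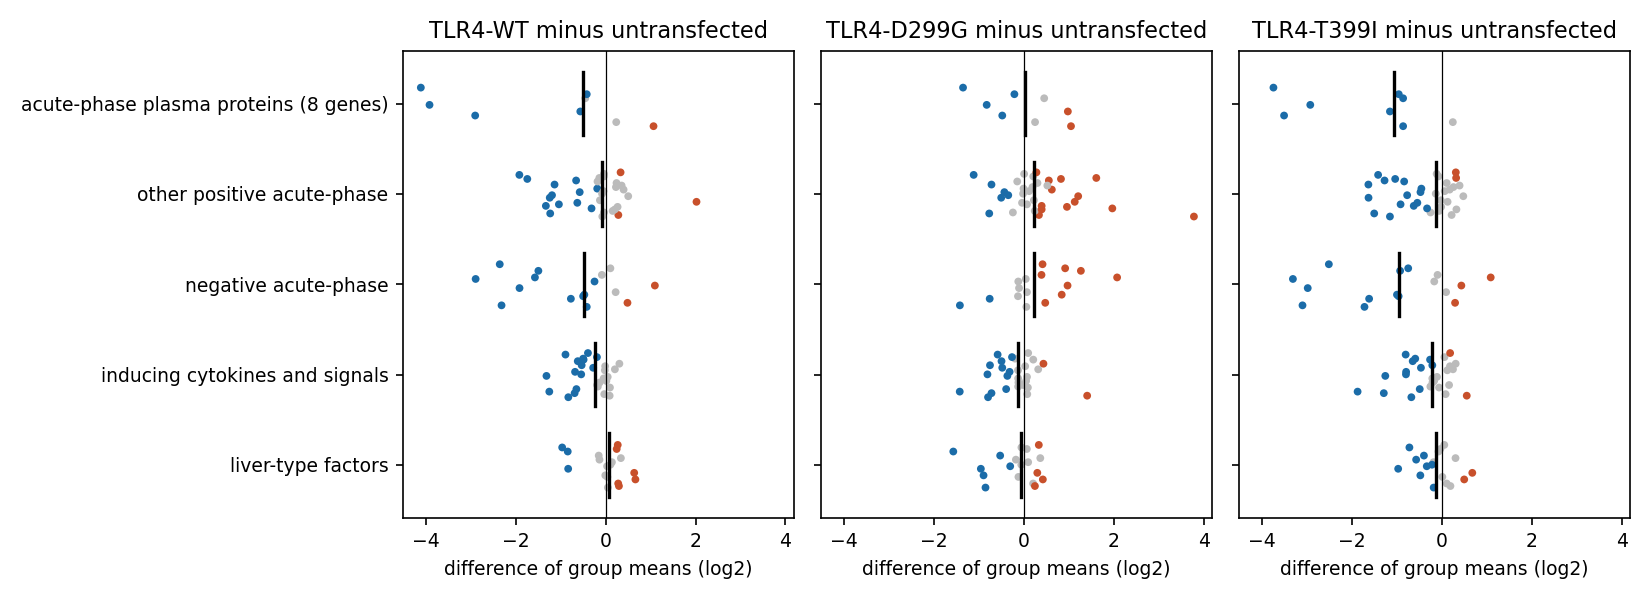
Difference of each TLR4 line from untransfected cells on the log2 scale (horizontal axis) for the 8 genes and 4 lists of related genes (1 point per gene, spread vertically for legibility); red is called higher, blue called lower, grey not called, and the black bar is the list median. The bar of the negative acute-phase list lies at -0.49 in TLR4-WT, 0.23 in TLR4-D299G and -0.95 in TLR4-T399I.

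Among 28 genes of the inducing cytokines, their receptors and signal paths, 15 were lower and 0 higher in TLR4-WT, 12 lower and 2 higher in TLR4-D299G, and 13 lower and 2 higher in TLR4-T399I than in untransfected cells. The shares lower and higher over all probe sets were 15.1% and 16.1%, 17.9% and 17.5%, and 14.8% and 14.6%. The list's medians were -0.24, -0.13 and -0.21, against 0.05, 0.03 and 0.03. NR3C1, the glucocorticoid receptor, fell by 1.26, by 1.43 and by 1.88 in that order (adjusted p = 2.3e-06, 8.7e-07 and 1.19e-07). IL1R1, the interleukin-1 receptor, fell by 1.32 (adjusted p = 1.32e-05) in TLR4-WT, by 0.37 (adjusted p = 0.0311) in TLR4-D299G and by 1.26 (adjusted p = 1.75e-05) in TLR4-T399I. Its partner IL1RAP fell by 0.69, by 0.72 and by 1.29. LIFR, a gp130 partner, had means of 4.50 in untransfected cells, 4.59 in TLR4-WT, 5.91 in TLR4-D299G and 5.05 in TLR4-T399I. It was called higher in both mutant lines (adjusted p = 5.11e-06 and 0.00323), though its values in all groups but TLR4-D299G lay below the arrays' lower quartile. Of the interleukin-6 path itself, named for its role after its values were seen, IL6 had group means of 4.67 to 4.88, below the lower quartile of the arrays. The receptor gene IL6R fell by 0.90, by 0.58 and by 0.81 in TLR4-WT, TLR4-D299G and TLR4-T399I (adjusted p = 1.65e-05, 0.000269 and 3.32e-05). IL6ST, the gene of gp130, had means of 10.41 in untransfected cells, 9.72 in TLR4-WT, 10.09 in TLR4-D299G and 9.61 in TLR4-T399I. STAT3 had 10.17, 9.67, 10.38 and 9.9 in that order. It was 0.70 (adjusted p = 0.000272) higher in TLR4-D299G than in TLR4-WT and 0.47 (adjusted p = 0.0044) higher than in TLR4-T399I. SOCS3, a target and brake of STAT3, was called in no comparison (6.34 to 6.5).

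Of 18 liver-type transcription factors measured, 3 were lower and 6 higher in TLR4-WT, 6 lower and 4 higher in TLR4-D299G, and 8 lower and 2 higher in TLR4-T399I than in untransfected cells. Against 15.1% and 16.1%, 17.9% and 17.5%, and 14.8% and 14.6% of all probe sets, the 3 lower in TLR4-WT, the 4 higher in TLR4-D299G and the 2 higher in TLR4-T399I were near the background. The medians were 0.075, -0.055 and -0.13, against 0.05, 0.03 and 0.03. HNF4G had means of 7.97 in untransfected cells, 7.13 in TLR4-WT, 6.40 in TLR4-D299G and 7.90 in TLR4-T399I. NR5A2 fell by 0.84, by 0.96 and by 0.97 in TLR4-WT, TLR4-D299G and TLR4-T399I (adjusted p = 4.86e-06, 1.77e-06 and 1.55e-06). PROX1, a factor of liver development, was lower in TLR4-WT (7.21) and TLR4-T399I (7.46) than in untransfected cells (8.18) and TLR4-D299G (8.13). CDX2, an intestinal factor, was lowest in TLR4-D299G (9.14, against 9.81 to 10.04 in the other groups).

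Of 13 genes for partners and receptors of these proteins, 2 were lower and 3 higher in TLR4-WT, 3 lower and 4 higher in TLR4-D299G, and 5 lower and 2 higher in TLR4-T399I than in untransfected cells. All probe sets gave 15.1% lower and 16.1% higher, 17.9% and 17.5%, and 14.8% and 14.6%. The counts in TLR4-WT, the 3 lower in TLR4-D299G and the 2 higher in TLR4-T399I were near those shares. The medians were 0.07, 0.17 and 0.05, against 0.05, 0.03 and 0.03. HMOX1, the enzyme that breaks down haem, rose in all 3 lines, by 0.48 in TLR4-WT, 0.63 in TLR4-D299G and 0.40 in TLR4-T399I (adjusted p = 0.000638, 7.6e-05 and 0.00185). CD36, a scavenger receptor, had means of 5.69 in untransfected cells, 5.55 in TLR4-D299G, 3.78 in TLR4-WT and 4 in TLR4-T399I. Its values in TLR4-WT and TLR4-T399I lay below the arrays' lower quartile. SCARB1, a lipoprotein receptor that also binds serum amyloid A, fell by 0.46 (adjusted p = 0.000309) in TLR4-T399I. CD163, the macrophage receptor for haptoglobin bound to haemoglobin, lay at group means of 4.78 to 5.35, near or below that quartile. It differed only between TLR4-D299G and TLR4-WT (0.57, adjusted p = 0.0366).

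Of 11 hepatocyte markers, 4 were lower and 2 higher in TLR4-WT, 1 lower and 6 higher in TLR4-D299G, and 6 lower and 1 higher in TLR4-T399I than in untransfected cells (medians -0.05, 0.32 and -0.78, against 0.05, 0.03 and 0.03 over all probe sets, of which 15.1% and 16.1%, 17.9% and 17.5%, and 14.8% and 14.6% were lower and higher). Their mean log2 value was 8.21 to 8.25 per array in untransfected cells, 8.42 to 8.55 in TLR4-D299G, 7.68 to 7.79 in TLR4-WT and 7.38 to 7.42 in TLR4-T399I. Of the 11, 2 or 3 lay below the arrays' lower quartile in each group, among them CYP3A4 (means of 4.05 to 4.43) and G6PC1 (4.51 to 4.94). A filter to the brighter probe sets left 6 of the 11. Of these, 2 were higher and 1 lower in TLR4-D299G than in untransfected cells. In TLR4-WT 0 were higher and 4 lower, and in TLR4-T399I 0 were higher and 6 lower. In TLR4-WT the largest differences of the list were in ALB, which like TTR is also counted among the negative acute-phase proteins, and in SLC10A1, the bile acid importer (6.32 against 8.85). ASGR2 had 9.24 there against 9.29. ASGR1, the asialoglycoprotein receptor subunit, had means of 8.75, 9.07, 8.78 and 7.97 in untransfected, TLR4-D299G, TLR4-WT and TLR4-T399I cells. The part of these markers in the differences of the acute-phase genes was not tested.

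By the rule of likeness, the 3 genes with the highest Pearson correlation over the 12 arrays were sought among the 2290 genes whose values spanned at least 1 log2 unit. The 12 arrays form 4 groups, so these correlations mostly follow the group means and are descriptions. For ORM1 they were ALCAM and ACADSB (r = 0.991 each) and APOH (0.99), and for ORM2 AKR1C3 (0.996), SCPEP1 (0.989) and ARFGAP3 (0.987). For HPX they were SLC16A4 (0.995), PHEX (0.99) and DIO1 (0.987), and for SERPINA1 UGT2A3 (0.993), ABCA1 and TCP11L2 (0.982 each). For SERPINA3 they were TTR (0.987), SAT1 and SERPINC1 (0.981 each). HP and FGL1 had looser likenesses, with TAF1 (0.923), SLC41A2 (0.908) and FGB (0.904) for HP and PFKFB1 (0.888), ASGR1 (0.886) and F2 (0.884) for FGL1. SAA1, with a span of 0.64, had its highest values with LOC442132 (0.853), MIR30C2 (0.773) and KRTAP5-4 (0.772). None of the 8 genes was among the 3 most like another of them, though some followed each other closely. Between members r ran from -0.44 (ORM1 with SAA1) to 0.98 (ORM1 with ORM2), and it was 0.957 for ORM1 with HPX.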

How the data were processed

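RNA of 12 Caco-2 samples, 3 per group, was measured on Affymetrix whole-transcript arrays. Per the submitters' processing notes, the authors ran RMA in Affymetrix Expression Console 1.0; the method subtracts background, equalises the arrays' distributions and joins probes into probe sets, and so can compress low values. What the authors deposited are log2 values with 2 decimals, used as given with no filter. Array medians ran from 6.88 to 6.97, and the number of arrays limits the precision. Array builds are not given in the sources used here. In the probe annotation 19460 probe sets had 1 symbol (19429 matched RefSeq by gene ID), 1754 had more than 1 and 12083 had no symbol.

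The test was limma's (limma 3.58.1, R 4.3.3). Means of the 4 groups were modelled over the 12 arrays together (residual degrees of freedom 8) and moderated by eBayes, with 6 pairwise comparisons and a moderated F test, two-sided, each adjusted by Benjamini-Hochberg over 33297 probe sets. The fit was tested on simulated data with independent noise, which held no differences between clones or cultures. For lists, the probe set with the highest mean stood for a gene, and the up to 4 called genes with the largest difference were named per list. The 8 genes and all lists were chosen with earlier results of these data known. The labels number replicates 1 to 3 in each group. Array correlations were 0.9902 to 0.9959 within groups and 0.9769 to 0.9925 between groups. Alternatives were median centring, brighter probe sets only, the 6 compared arrays alone, a trended robust prior, a replicate block, the mean of a gene's probe sets, and leaving out each of the 12 arrays in turn.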

Additional observations from a re-analysis of the deposited data

How the results depend on the processing

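The counts of the 8 genes called stayed within 1.5 times in all 6 comparisons under each alternative run. Of 38 calls, 33 passed under each of them and 5 were lost at least once: HP between TLR4-T399I and untransfected cells and between TLR4-D299G and TLR4-WT, SERPINA1 between TLR4-D299G and either untransfected cells or TLR4-WT, and ORM1 between TLR4-T399I and TLR4-WT. With a replicate block, 2 of these were lost, SERPINA1 between TLR4-D299G and TLR4-WT (0.213, adjusted p = 0.058) and ORM1 between TLR4-T399I and TLR4-WT (0.367, adjusted p = 0.0572), and the block ended no other call of the 8 genes. Deviations from the group means of same-numbered arrays correlated at -0.079 to 0.274 (median 0.055), over 0.1 in 5 of 18 pairs. For arrays with different numbers they correlated at -0.265 to 0.209 (median -0.029). No pairing was assumed, because the labels do not say that the numbers mark a shared batch or day. In a fit of the 6 compared arrays the adjusted p was 0.0773 for that ORM1 difference, 0.0544 for SERPINA1 between TLR4-D299G and TLR4-WT, and 0.0709 for it between TLR4-D299G and untransfected cells, with fewer arrays in the fit.

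Directions turned only among differences that were not called. With 1 array left out, FGL1 between TLR4-D299G and TLR4-WT ran from -0.07 to 0.035. SAA1 ran from -0.122 to 0.093 between TLR4-D299G and TLR4-WT, from -0.128 to 0.088 between TLR4-T399I and TLR4-WT, and from -0.077 to 0.113 between TLR4-D299G and TLR4-T399I, where it was -0.027 with arrays centred. The mean of a gene's probe sets changed only the number of tests, since each of the 8 genes had 1. Brighter probe sets gave no value for SAA1, which that filter removed. The list counts under 4 of these settings, chosen after seeing the data, kept the side with more calls for the positive and negative acute-phase lists in each TLR4 line against untransfected cells. In TLR4-D299G the positive list had 6 higher and 5 lower among brighter probe sets, instead of 13 and 6, with 16 instead of 33 of its genes left by that filter. Without detection calls it is not known whether SAA1 and IL6, below the arrays' lower quartile, lie above background. The same holds for LIFR and CD36 in the groups where they lay below it.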
